A study of Homo sapiens with 4 samples.

Results

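The transcripts followed here encode the aminoacyl-tRNA synthetases and the scaffold proteins that hold some of them together: 20 cytosolic enzymes or enzyme subunits, 3 scaffold proteins and 16 mitochondrial enzymes. These 39 genes were taken by their current symbols from a count table of 23459 genes, and all 39 passed a filter on counts scaled to library size (CPM, above 1 in at least 2 libraries), as did 12559 genes in all. RNA came from hTERT RPE-1 cells, a human retinal pigment epithelial line immortalised with telomerase and wild type here, which had been held for 48 h in medium with 0.1% serum and then given merbarone at 200 µM, an inhibitor that blocks the catalytic cycle of DNA topoisomerase II without trapping the enzyme on DNA. The libraries were made from polyadenylated RNA after 4 h (2 libraries) and after 8 h (2 libraries) of merbarone. Every library therefore carried the same cell line, the same serum withdrawal and the same drug dose, and only the length of exposure differed. Untreated cells were not analysed here, so time with the drug cannot be told apart from further time in low serum.

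An aminoacyl-tRNA synthetase joins an amino acid to its matching tRNA, the step that sets the meaning of each codon. The enzymes fall into class I and class II by the fold of the catalytic domain, and several cytosolic ones sit in a multi-synthetase complex with the scaffold proteins AIMP1, AIMP2 and EEF1E1. Mitochondria read their own genome with a separate set of synthetases, which nuclear genes encode and the organelle imports. GARS1 and KARS1 are exceptions, each giving both the cytosolic and the mitochondrial form of its enzyme, and EPRS1 carries the glutamyl and prolyl activities in a single cytosolic protein. The transcription factor ATF4, which is made when the integrated stress response slows general translation, is known to raise many cytosolic synthetase genes along with genes for amino acid transport and synthesis.

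The libraries held 8064450 to 10324697 counts, and the 39 genes took between 0.415% and 0.509% of them. In bulk RNA a smaller share of responding cells and a smaller amount of RNA per cell cannot be told apart. The defining markers of mature retinal pigment epithelium were at or near 0, with TYR at 0 counts in every library and RPE65 at 2 to 7 counts, while MITF and OTX2, transcription factors of this lineage, were present at 669 to 882 and 132 to 193 counts. The study's methods call the libraries of a time biological replicates, without saying whether they were separate cultures, and the p-values measure the spread between these libraries.

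Cytosolic and mitochondrial synthetase transcripts moved apart between 4 and 8 h. A gene is said to have risen or fallen where its Benjamini-Hochberg adjusted p, over all 12559 genes in edgeR's quasi-likelihood test, was below 0.05. Of the 23 cytosolic genes, 11 rose (47.8%), 1 fell and 11 did not pass, against 19.9% of all genes that rose and 18.8% that fell. Of the 16 mitochondrial genes, 4 fell (25%), which is near the background of 18.8%. No mitochondrial gene rose in edgeR, and the count of rises was also 0 in limma-voom, in DESeq2 and at an unadjusted p below 0.05 in each of these tools. The median log2 fold change (log2FC, 8 h relative to 4 h) was 0.22 over the cytosolic and −0.21 over the mitochondrial genes, where the median of all genes was 0.00. The difference between these medians, 0.43, does not depend on a scaling factor per library and is given as a description without a test. It was 0.27 after correction for a trend with abundance, and 14 of the 23 cytosolic genes belonged to the most abundant of 5 equal groups of genes, where 39.3% of all genes rose. With scaling by library size alone, which lowered the median of all genes to −0.11, 9 cytosolic genes rose and 3 fell, and 7 mitochondrial genes fell, where 13.5% of all genes rose and 26.2% fell. All changes were moderate. No member exceeded an absolute log2FC of 1 in edgeR, limma-voom or DESeq2, whatever its p, and the largest was 0.81 for GARS1 in each. Of all genes, 5.33% had both an absolute log2FC above 1 and an adjusted p below 0.05 in edgeR, 1.45% upward and 3.88% downward.

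**Figure D1:**
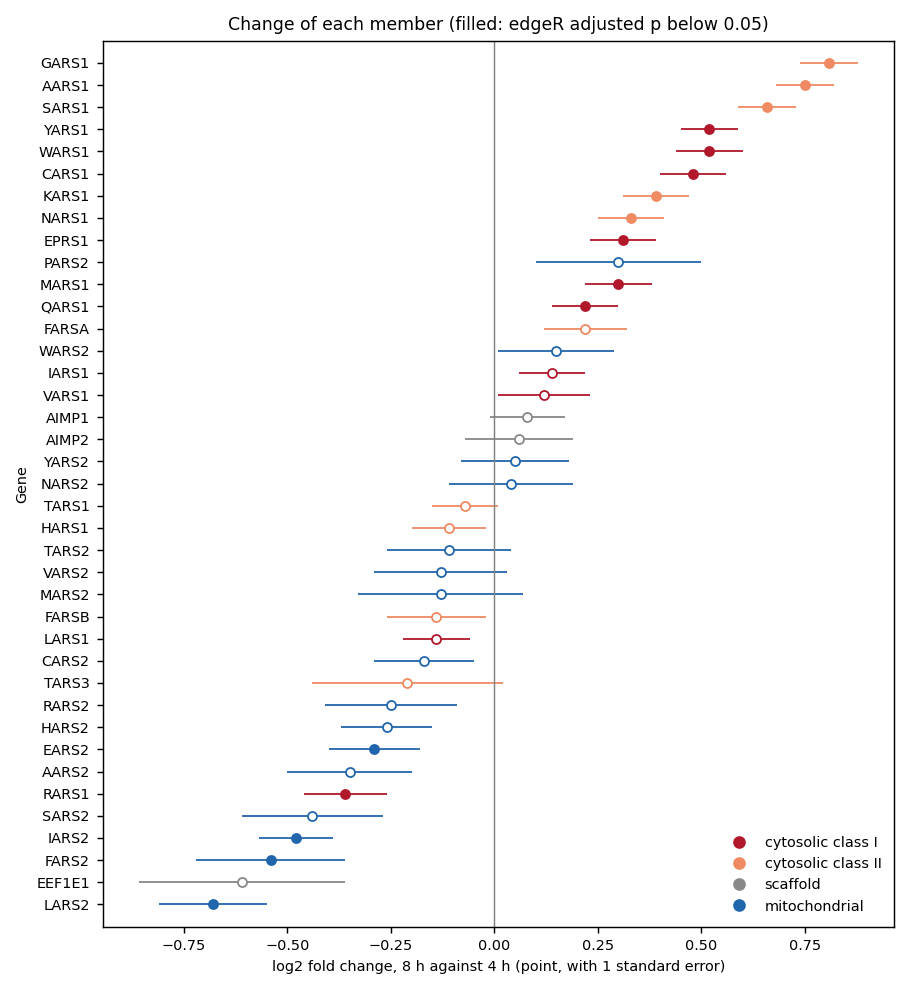
log2FC (8 h relative to 4 h) of the 39 genes by class, with bars of 1 standard error from edgeR (n = 2 libraries per time) and filled points for adjusted p below 0.05. The filled points to the right of 0 are 11 cytosolic genes, and those to the left are RARS1 and 4 mitochondrial genes.

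Summed over the genes, cytosolic transcripts stood at 3661 and 3524 CPM after scaling by the trimmed mean of M-values (TMM) at 4 h and at 4856 and 4677 at 8 h, a mean increase of 32.7% with both 8 h libraries above both 4 h libraries. The mitochondrial sum was 452 and 477 TMM-normalized CPM at 4 h and 390 and 386 at 8 h, and its mean fell by 16.5%. The cytosolic sum was thus 8.11 and 7.39 times the mitochondrial sum within the 4 h libraries and 12.46 and 12.13 times within the 8 h libraries. The most abundant genes weigh most in such sums. GARS1, AARS1 and SARS1 went from means of 350, 342 and 356 TMM-normalized CPM at 4 h to 612, 576 and 565 at 8 h. By contrast, 7 of the 23 cytosolic genes had a log2FC below 0.

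The cytosolic transcripts were also the more abundant per length of transcript. At 4 h the median over the cytosolic enzymes was 48.4 TMM-normalized CPM per kilobase, and over the mitochondrial enzymes it was 7.68. The cytosolic levels ran from 1.84 for TARS3, a threonyl-tRNA synthetase paralog, to 186 for SARS1, the seryl enzyme, with GARS1 at 143 and YARS1 at 111. The mitochondrial levels ran from 3.39 for MARS2 to 29.2 for IARS2, so that the ranges of the compartments overlapped.

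**Figure D2:**
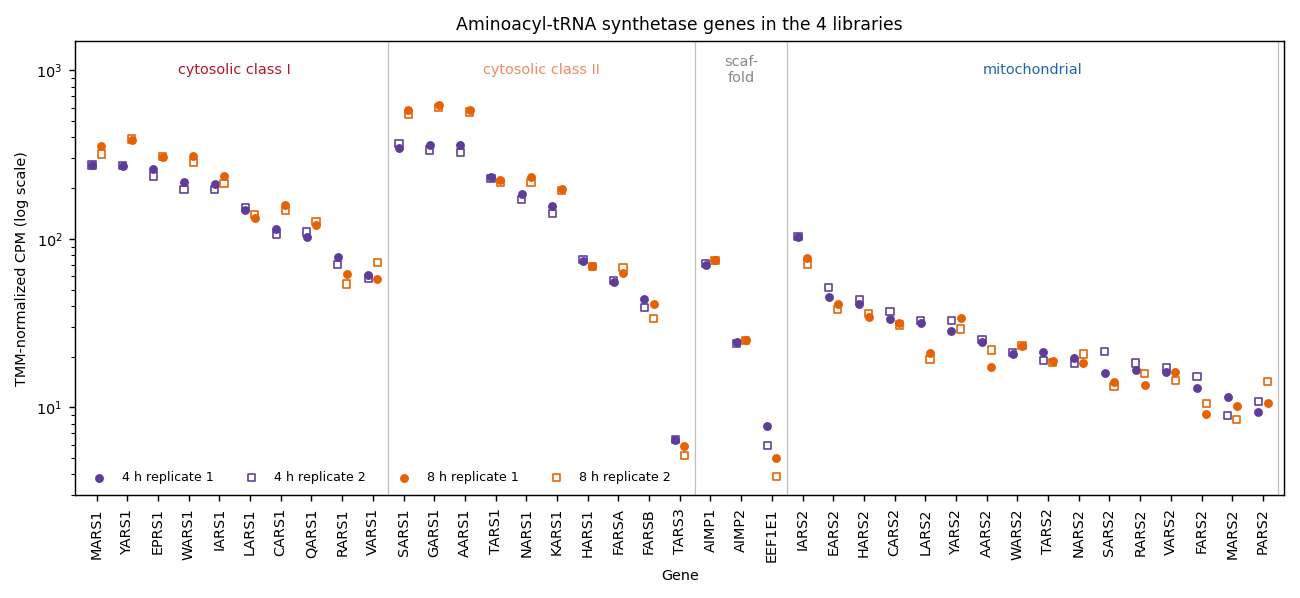
TMM-normalized CPM of each of the 39 genes in every library on a log axis, not corrected for transcript length, with 4 h and 8 h libraries in separate colours. The 8 h points of GARS1, AARS1 and SARS1 lie between 546 and 622, above all of their 4 h points.

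The largest rise was that of GARS1, the glycyl-tRNA synthetase of both compartments (chromosome 7, 30620149 to 30673649, plus strand, 17 exons, GRCh37). Its level was 362 and 337 TMM-normalized CPM at 4 h and 622 and 602 at 8 h. Both later libraries were above both earlier ones, at 1.75-fold (log2FC 0.81, SE 0.07, edgeR adjusted p = 7.74e-08). AARS1, the alanyl enzyme (chromosome 16, 70285886 to 70323610, minus strand, GRCh37), followed. AARS1 went from 360 and 324 to 584 and 567 TMM-normalized CPM (log2FC 0.75, SE 0.07, edgeR adjusted p = 2.75e-07). SARS1, which charges tRNAs with serine and also those that later carry selenocysteine (chromosome 1, 109756540 to 109780804, plus strand, GRCh37), went from 345 and 367 to 583 and 546 (log2FC 0.66, SE 0.07, edgeR adjusted p = 9.75e-07). For AARS1 and SARS1 too the libraries of the times did not overlap, which held for 69.7% of all genes tested (34.8% higher and 34.9% lower at 8 h).

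A next tier rose by 1.39-fold to 1.43-fold. YARS1, the tyrosyl enzyme, was at 269 and 272 TMM-normalized CPM at 4 h and at 385 and 391 at 8 h (log2FC 0.52, edgeR adjusted p = 1.54e-05). WARS1, the tryptophanyl enzyme, which interferon also induces, went from 218 and 197 to 310 and 283 (log2FC 0.52, edgeR adjusted p = 5.21e-05). CARS1, the cysteinyl enzyme, went from 114 and 106 to 160 and 147 (log2FC 0.48, edgeR adjusted p = 0.000175). In each of the 3 genes the lower 8 h library exceeded the higher 4 h library. These 6 leading enzymes act outside the multi-synthetase complex, and all 6 rose under each of the alternative settings that tested for any change, including when any single library was left out.

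KARS1, the lysyl enzyme of both compartments and a member of the complex, was at 156 and 142 TMM-normalized CPM at 4 h and at 198 and 194 at 8 h (log2FC 0.39, SE 0.08, edgeR adjusted p = 0.000697). The other 4 genes that rose were NARS1 for asparagine, EPRS1 for glutamate and proline, MARS1 for methionine and QARS1 for glutamine, with log2FC values of 0.33, 0.31, 0.30 and 0.22. Of these, QARS1 had an edgeR adjusted p of 0.0437, which passed the threshold in 4 of 12 alternatives, and its 4 h libraries (103 and 110) stood only a little under its 8 h libraries (121 and 127). MARS1 did not pass without 4 h replicate 1 (log2FC 0.29), and NARS1 and EPRS1 did not pass without 4 h replicate 2 (0.28 and 0.25). MARS1 shares 60 exonic bases, 2.15% of its transcript, with DDIT3 on the opposite strand, which rose by 0.88 on the log2 scale. Whether strand was used in counting is not given in the sources used here, and the part of those shared bases in the MARS1 counts was not tested.

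RARS1, the arginyl enzyme of the complex (chromosome 5, 167913456 to 167946306, plus strand, GRCh37), was the cytosolic gene that fell. It was at 78.0 and 70.7 TMM-normalized CPM at 4 h and at 61.9 and 53.9 at 8 h, with no overlap between times (log2FC −0.36, SE 0.10, edgeR adjusted p = 0.00818). Without 4 h replicate 1 the log2FC was −0.29 and did not pass.

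Within the complex the enzymes did not move together. KARS1, MARS1, EPRS1 and QARS1 rose, RARS1 fell, and IARS1 and LARS1, for the branched-chain amino acids isoleucine and leucine, did not pass at log2FC values of 0.14 and −0.14. None of the 3 scaffold proteins passed. AIMP1 and AIMP2 were at 0.08 and 0.06, or at −0.03 and −0.05 with scaling by library size alone, and EEF1E1 was at −0.61 with only 30 to 83 counts per library (SE 0.25, edgeR adjusted p = 0.0609). Of the EEF1E1 transcript, 18.8% has a near copy elsewhere in the genome where uniquely mapped reads may be lost, and 44.4% of AIMP2's exonic bases lie opposite those of EIF2AK1, so both values are uncertain. Of the 13 cytosolic enzymes outside the complex, 7 rose and 6 did not pass. Their median log2FC was 0.33, against 0.22 for the 7 enzymes within it. Of all genes, 19.9% rose and 18.8% fell. The most abundant group, where 39.3% of all genes rose, held 8 of the 13 enzymes outside and 6 of the 7 within.

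By class, of the 10 class I enzymes, 6 rose and 1 fell (median log2FC 0.26). Of the 10 class II enzymes 5 rose and 5 did not pass (median 0.27). Of all genes, 19.9% rose and 18.8% fell. The most abundant group, where 39.3% of all genes rose, held 8 of the class I and 6 of the class II enzymes. EPRS1, whose glutamyl activity is of class I and prolyl activity of class II, was counted in class I only. The cytosolic enzymes that did not pass included TARS1 for threonine at −0.07, VARS1 for valine at 0.12, and both subunits of the phenylalanyl enzyme, FARSA at 0.22 and FARSB at −0.14.

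The mitochondrial enzymes were lower at 8 h in 12 of 16 genes by the sign of the fitted change, as were 6309 of all 12559 genes, and 4 passed the threshold. LARS2, the mitochondrial leucyl enzyme (chromosome 3, 45430053 to 45596218, plus strand, GRCh37), had the largest change. It was at 31.6 and 32.8 TMM-normalized CPM at 4 h and at 20.9 and 19.2 at 8 h, and fell by 37.6% (log2FC −0.68, SE 0.13, edgeR adjusted p = 0.000381). IARS2, the isoleucyl enzyme (chromosome 1, 220267474 to 220321383, plus strand, GRCh37), is the most abundant of the set per length. It went from 103.3 and 103.0 to 76.5 and 71.0 (log2FC −0.48, SE 0.09, edgeR adjusted p = 0.00025). Both LARS2 and IARS2 were separated between the times, and both fell under each alternative setting that tested for any change.

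FARS2, the mitochondrial phenylalanyl enzyme, and EARS2, the glutamyl enzyme, rested on narrower margins. FARS2 was at 13.1 and 15.3 TMM-normalized CPM at 4 h and at 9.17 and 10.5 at 8 h, from 81 to 162 counts (log2FC −0.54, SE 0.18, edgeR adjusted p = 0.0272). EARS2 was at 45.3 and 51.6 and then at 40.9 and 38.1 (log2FC −0.29, SE 0.11, edgeR adjusted p = 0.0414). The libraries of the times did not overlap for either gene, yet neither passed in DESeq2, where 2 mitochondrial genes and 12.2% of all genes fell. After correction for the trend with abundance FARS2 did not pass either (log2FC −0.41). FARS2 did not pass without 4 h replicate 1, 4 h replicate 2 or 8 h replicate 1 (log2FC −0.65, −0.42 and −0.44), and EARS2 did not pass without 4 h replicate 2 or 8 h replicate 2 (−0.20 and −0.25).

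Among the remaining mitochondrial genes, SARS2 for serine (log2FC −0.44, edgeR adjusted p = 0.0504) and AARS2 for alanine (−0.35, edgeR adjusted p = 0.0629) came closest to the threshold. SARS2 fell in 6 of 12 alternatives and ran from −0.21 without 4 h replicate 2 to −0.65 without 4 h replicate 1, and AARS2 fell in 3 of 12 and ran from −0.18 without 8 h replicate 1 to −0.53 without 8 h replicate 2. The positive values were PARS2 for proline at 0.30, WARS2 for tryptophan at 0.15, YARS2 for tyrosine at 0.05 and NARS2 for asparagine at 0.04, and YARS2 and NARS2 were both at −0.06 with scaling by library size alone. PARS2 was at 0.50 without 8 h replicate 1 and at 0.08 without 8 h replicate 2. Of these 4 genes only WARS2 had both 8 h libraries above both 4 h libraries. The standard errors of the log2FC ran from 0.09 to 0.20 over the mitochondrial enzymes, with a median of 0.15, against a median of 0.08 over the cytosolic enzymes.

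Comparing each cytosolic enzyme with its mitochondrial counterpart inside a library removes the scaling between libraries. Over 16 such pairs, in which EPRS1 served for both glutamate and proline, the log2 ratio of counts changed by a median of 0.46 from 4 to 8 h. Such a ratio is not corrected for the trend with abundance. The median log2FC of all genes was 0.12 in the most abundant group and −0.07 in groups 2 and 3 from the least abundant end. The part of that trend in the ratios was not tested. The alanyl pair changed most. AARS1 had 14.7 and 12.8 counts per AARS2 count at 4 h and 33.8 and 25.9 at 8 h (log2 change 1.11). The seryl pair went from 21.6 and 17.1 to 41.1 and 40.9 (1.09), with a rise of SARS1 that passed and a SARS2 value just short of passing. At the other end, the arginyl pair was at 4.68 and 3.86 and then at 4.57 and 3.38 (−0.11), with overlap between times. The threonyl pair (0.03), the EPRS1 to PARS2 pair (0.02) and the valyl pair (0.26) also overlapped. With 2 libraries against 2, an exact two-sided permutation test of a ratio cannot go below p = 0.333, so these ratios are given as values without a test.

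**Figure D3:**
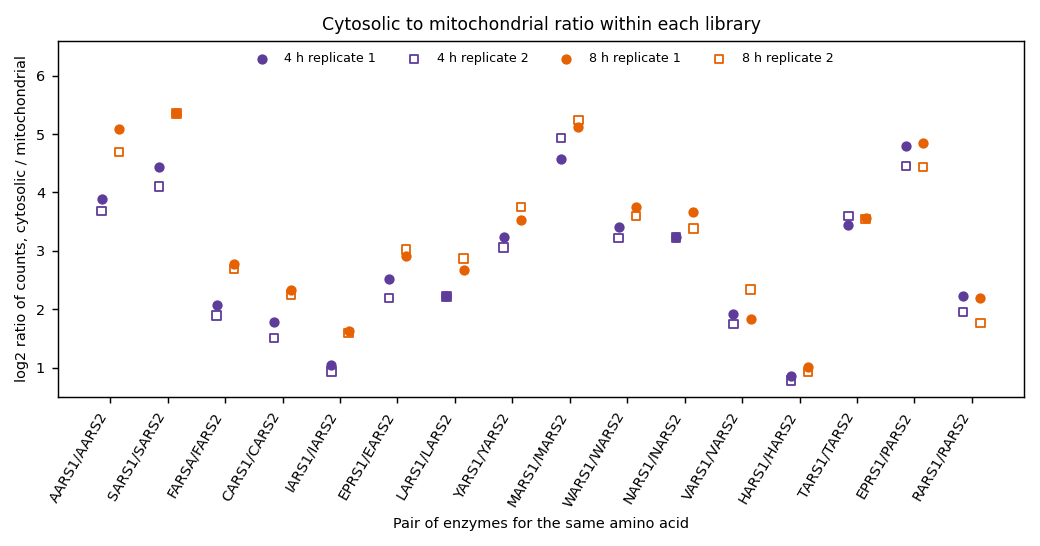
log2 ratio of cytosolic to mitochondrial counts in each of the 4 libraries for the 16 amino acid pairs, ordered by the change from 4 to 8 h. The means of the alanyl and seryl pairs are 1.11 and 1.09 log2 units higher at 8 h, and the points of the arginyl and threonyl pairs overlap.

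HARS1 and HARS2, the cytosolic and mitochondrial histidyl enzymes, are neighbours on chromosome 5 and are transcribed away from each other. In RefSeq (GRCh38.p14) the annotated starts lie 85 bases apart, and the 300-base promoter windows share 184 bases. In GENCODE (GRCh37) the gene spans overlap at their starts, with HARS1 from 140071122 on the minus strand and HARS2 from 140071015 on the plus strand. By the measure used for MARS1, each shares 0 exonic bases with other genes. HARS1 was at 73.9 and 75.2 TMM-normalized CPM at 4 h and at 69.5 and 68.4 at 8 h (log2FC −0.11, edgeR adjusted p = 0.348). HARS2 was at 40.8 and 43.8 and then at 34.5 and 36.2 (−0.26, edgeR adjusted p = 0.0688). Neither passed, and their ratio changed by 0.15 on the log2 scale, among the smaller changes of the 16 pairs.

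Change between the times followed abundance in the whole data set, and the compartments differ in abundance. When all genes were divided into 5 groups of equal size by mean log2-CPM, 39.3% of the most abundant group rose and 14.9% fell, whereas in groups 2 and 3 from the least abundant end 13.8% rose and 22.7% fell. Of the 23 cytosolic genes, 14 were in the most abundant group, where 11 rose with a median log2FC of 0.36 against 0.12 for all genes there. The other 9 cytosolic genes had a median of −0.11, and RARS1 alone passed. Of the mitochondrial genes, 14 were in groups 2 and 3, where 2 fell with a median of −0.15 against −0.07 for all genes there. After the trend with abundance was subtracted, 8 cytosolic genes rose and 2 fell (RARS1 and LARS1) and 3 mitochondrial genes fell, against 18.1% of all genes that rose and 18.4% that fell, and the difference between the medians was 0.27. EPRS1, MARS1, QARS1 and FARS2 lost their calls in that fit, with log2FC values of 0.18, 0.16, 0.12 and −0.41.

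**Figure D4:**
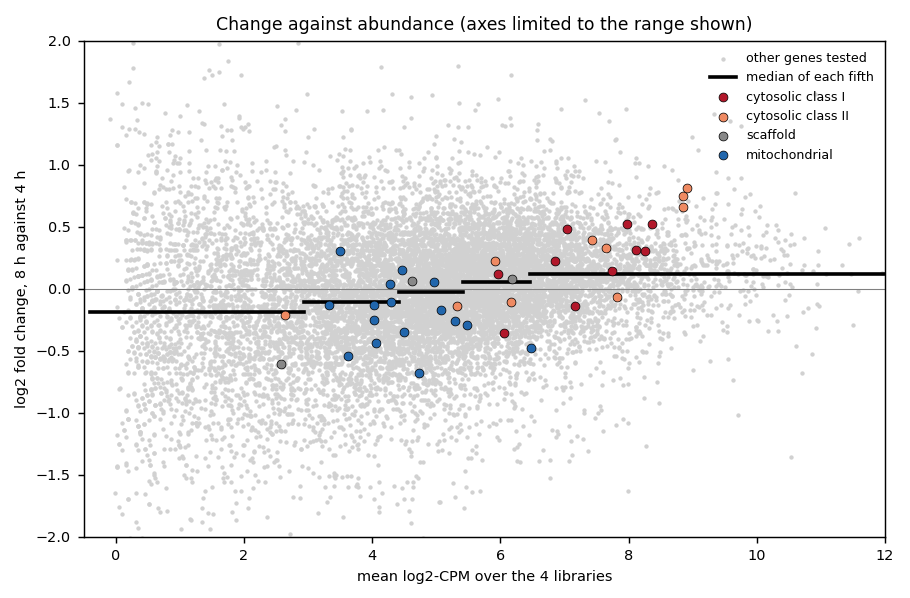
log2FC (8 h relative to 4 h) against mean log2-CPM for all 12559 genes in grey, with cytosolic and mitochondrial members in colour. The 14 cytosolic genes of the most abundant group have a median of 0.36, and the mitochondrial members sit at lower abundance with a median of −0.21.

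Members with an established link to ATF4 can be set apart. Of 13 such cytosolic enzymes, 9 rose and 4 did not pass, with a median log2FC of 0.33. Of the other 7 enzymes 2 rose and 1 fell, with a median of −0.11. Of all genes, 19.9% rose and 18.8% fell. Of those 13 enzymes 12 were in the most abundant group, where 39.3% of all genes rose, against 2 of the other 7. The part of abundance in the contrast was not tested. The list was chosen with earlier results of these data known, so the contrast is a description and not independent support. ATF4 acts with C/EBP proteins at a composite element, whose core letters TGATGNAA were searched on both strands in RefSeq promoter windows reaching 250 bases before and 50 after the start (GRCh38.p14), alongside the letters of an ETS core, an NRF1 core and an E-box. No matches of different motifs overlapped in the members' windows. A window was found for 33 of the 39 members, which leaves out AARS2, LARS1, TARS3, VARS1, VARS2 and YARS1.

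Genes were counted where any of their windows held a match. The core letters of the ATF4 element occurred in 7 of 19 cytosolic genes (36.8%) and in 1 of 14 mitochondrial genes (7.14%) with a window. They occurred in 2.65% of the 10183 retained genes with a window and in 4.46% of all 27305 genes with a window. The cytosolic genes with the letters were AARS1, CARS1, GARS1, IARS1, MARS1, NARS1 and TARS1, and the mitochondrial gene was YARS2. Stretches of 60 bases are shown so that the position and form of the match can be compared between genes that rose and genes that did not. Each is written 5′ to 3′ on the strand of its gene, and capitals mark the match, which reads TTGCATCA or TTTCATCA where the core lies on the opposite strand. AARS1 (chr16:70289660-70289719, minus strand), CARS1 (chr11:3057394-3057453, minus strand), GARS1 (chr7:30594819-30594878, plus strand) and MARS1 (chr12:57488038-57488097, plus strand) rose.
AARS1: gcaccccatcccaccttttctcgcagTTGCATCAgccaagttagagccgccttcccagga
CARS1: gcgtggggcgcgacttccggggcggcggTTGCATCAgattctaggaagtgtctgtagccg
GARS1: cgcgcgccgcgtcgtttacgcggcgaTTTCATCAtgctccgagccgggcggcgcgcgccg
MARS1: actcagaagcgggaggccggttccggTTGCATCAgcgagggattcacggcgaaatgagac
IARS1 (chr9:92293677-92293736, minus strand), TARS1 (chr5:33440935-33440994, plus strand) and YARS2 (chr12:32756061-32756120, minus strand) did not pass the test.
IARS1: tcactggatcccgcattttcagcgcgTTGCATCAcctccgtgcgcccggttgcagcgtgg
TARS1: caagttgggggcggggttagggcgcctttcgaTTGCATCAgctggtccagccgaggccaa
YARS2: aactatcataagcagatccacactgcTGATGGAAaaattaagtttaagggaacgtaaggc

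AARS1, CARS1, MARS1, IARS1 and TARS1 carry the same 8 letters, as does NARS1 on the other strand from 14 bases after its start (stretch not shown), although their log2FC values ran from 0.75 for AARS1 to −0.07 for TARS1. Positions are relative to the annotated start (position 0) of the window that held the match. It began at −187 in AARS1, −33 in GARS1, −13 in IARS1, −4 in MARS1, −2 in CARS1, 2 in TARS1 and −197 in YARS2. GARS1 and TARS1 each also have a window of a start further upstream (chr7:30594485-30594784 and chr5:33440446-33440745). In both genes the match lies downstream of that window. Of the 7 cytosolic genes with the letters 5 rose (median log2FC 0.33). Of the 12 without them 5 rose (median 0.15), SARS1 and WARS1 among these. The share that rose was 19.9% of all genes and 39.3% of the most abundant group. Among genes with a window, the ETS core CCGGAAG was found in 52.6% of cytosolic and 50% of mitochondrial genes, against 22.8% of retained genes. The NRF1 core, GCGC and TGCGC with any base between, was in 21.1% and 21.4% against 13.8%, and the E-box CACGTG in 10.5% and 21.4% against 12.6%. A match is a description of the letters and does not show that a factor binds there.

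The genes that work beside the synthetases were counted from lists. Of 20 ATF4 reference genes, 14 rose and 3 fell, against 19.9% and 18.8% of all genes, and 17 of the 20 were in the most abundant group, where 39.3% of all genes rose. The rises were led by SLC7A11, the cystine-glutamate exchanger, at a log2FC of 1.45 (edgeR adjusted p = 2.58e-09) and TRIB3, a pseudokinase of this response, at 1.22 (edgeR adjusted p = 5.58e-10). ATF4 itself rose by 0.32 on the log2 scale, and the largest falls were ATF5 at −0.56 and ATF3 at −0.54. No synthetase reached the change of SLC7A11 or TRIB3.

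Of 8 cytosolic elongation factor genes tested, 3 rose and 1 fell, where 19.9% of all genes rose and 18.8% fell. EEF1G, a subunit of the exchange factor for the carrier of charged tRNA, rose by 0.63 and EEF2, the translocase, by 0.58 on the log2 scale, while EEF2K, the kinase that inactivates EEF2, was at −0.87. Of 10 mitochondrial translation factor genes, 3 fell and 7 did not pass, which is not far from the 18.8% of all genes that fell. These were the release factor MTRF1 at −0.98, the elongation factor TSFM at −0.43 and the ribosome recycling factor GFM2 at −0.33. Mitochondria make glutaminyl-tRNA with an amidotransferase instead of a synthetase, and its subunits GATB, GATC and QRSL1 were at −0.27, −0.23 and −0.07 with none past the threshold (edgeR adjusted p = 0.0884, 0.05 and 0.683).

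Of 19 tRNA maturation genes tested, 2 rose and 8 fell, against 19.9% and 18.8% of all genes. RPP38, a protein of the ribonucleases P and MRP, rose by 0.78, and XPOT, which exports tRNA from the nucleus, rose by 0.51 on the log2 scale. The largest falls were in other proteins of the same ribonucleases, RPP25 at −2.33, from 38 and 44 counts to 9 and 4, and POP1 at −1.19. Of 4 tRNA editing and related genes tested, PSTK, the kinase that acts on seryl-tRNA on the way to selenocysteine, fell by 0.59 and 3 did not pass. Transcripts for mitochondrial proteins did not all move down, since of 5 mitochondrial stress genes LONP1, the matrix protease, rose by 0.77 and HSPA9, the matrix chaperone, by 0.68 on the log2 scale, CLPP also rose and 2 did not pass.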

How the data were processed

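The authors deposited raw read counts per gene for each of the 4 libraries, indexed by NCBI Gene ID. They prepared stranded libraries from polyadenylated RNA, sequenced single reads and aligned them to hg19 with Bowtie 1.2.0, keeping uniquely mapped reads, and the counting tool and its use of strand are not given in the sources used here. From the counts, genes above 1 CPM in 2 or more libraries entered the fit, libraries were scaled by TMM, and time was tested with edgeR 4.0.16 (quasi-likelihood, Benjamini-Hochberg, adjusted p below 0.05) in R 4.3.3. The biological coefficient of variation was 6.52%. Alternatives were limma-voom (limma 3.58.1, the authors' test), DESeq2 1.42.0, other scalings and filters, a replicate block, correction of the trend with abundance, and leaving out each library.

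Members and lists were chosen with earlier results of these data known. Values in every library are given for up to 6 cytosolic and up to 6 mitochondrial members with the largest changes past the threshold (6 and 4 here), GARS1, KARS1 and the neighbours HARS1 and HARS2, and in each list up to 2 rises and 2 falls are named. ATF4, EEF1E1, CLPP, GFM2 and amidotransferase values, and the values of other members, were added afterwards. Near copies were found with blastn 2.17.0, as 75-base windows of a transcript that match elsewhere in GRCh37 with at most 3 mismatches. Annotation was GENCODE for GRCh37, and promoter sequences are from RefSeq (GRCh38.p14). On simulated counts for this comparison (12559 genes, 200 changed) edgeR recovered 80% of changes of 1 log2 unit and 98% of 2 log2 units. It made 7 false calls there. Recovery of changes below 1 log2 unit, where all 39 members lie, was not tested. False calls with a larger share of changed genes were not tested either, and 38.8% of genes passed the threshold in the data. Some results on genes outside the member list are not reported here.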

Additional observations from a re-analysis of the deposited data

How the results depend on the processing

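With 39 members and 12 alternatives, 416 of 468 member values kept their direction and side of the threshold, 23 lost and 18 gained a call, and 11 changed sign. Without TMM (library size alone) the centre of all genes lay at −0.11, and 9 cytosolic genes rose, 3 fell and 7 mitochondrial genes fell, with medians of 0.11 and −0.32, and AIMP1 (−0.03), AIMP2 (−0.05), NARS2 (−0.06) and YARS2 (−0.06) turned negative. DESeq2 gave 2 mitochondrial falls. Subtracting the trend with abundance gave medians of 0.12 and −0.15, a difference of 0.27, and MARS2 at 0.01. With 1 library left out, the lone library of that time was assumed to vary like the other group. The mitochondrial count of calls then ran from 2 (without 4 h replicate 2, where 12.1% of all genes fell) to 4, the cytosolic median from 0.19 to 0.25 and the mitochondrial median from −0.29 to −0.19. MARS2 ran from −0.29 to 0.05, YARS2 from −0.07 to 0.15 (−0.06 without 4 h replicate 1), NARS2 from −0.04 to 0.13 (−0.01 without 4 h replicate 2) and VARS1 from −0.05 to 0.28. The cause of these shifts was not tested. With a replicate block, 11 cytosolic genes rose, 2 fell and 7 mitochondrial genes fell, against 22.5% of all genes that rose and 21.2% that fell. The labels give no shared source for same-numbered libraries, and the correlation of their deviations was 0.05 over all genes and 0.11 over genes with a mean count of at least 100. With only 2 pairs the numbers were not taken as a pairing. Depth was lowest for EEF1E1 (from 30 counts), TARS3 (from 40) and MARS2 (from 65).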
